A study of Mus musculus with 13 samples.

Results

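Bone morphogenetic protein (BMP) signalling was followed through 8 genes, chosen by name from the raw count table across all 4 groups: the ligands Bmp4 and Bmp5, the receptor Bmpr1a, and the target genes Id1, Id2, Id3, Id4 and Msx1. All 8 are among the 13549 genes of the table. The choice sets the supply of ligand beside the response of target genes. RNA was sequenced from oligodendrocyte-lineage cells cultured from brains of C57BL/6 mice, in 9 libraries. Oligodendrocyte precursor cells (OPCs) were grown in a DMEM-based medium with the growth factors PDGF and NT-3. Immature oligodendrocytes (iOLs) came from OPCs kept for 2 days with thyroid hormone (T3) added and PDGF taken away. Each stage had control cultures and cultures with a conditional knockout (cKO) of Eed. The EED protein is a subunit that the histone methyltransferase complex PRC2 needs to place the repressive mark H3K27me3.

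The groups were control OPCs (2 libraries, 1 from postnatal day 7 and 1 from day 6), Eed cKO OPCs (3 libraries, 2 from day 7 and 1 from day 6), control iOLs (2 libraries, day 6) and Eed cKO iOLs (2 libraries, day 6). Groups were read from the sample titles, because the genotype entry is the same for controls and cKO. The Cre driver and the control genotype are not given in the sources used here. Whether replicates come from separate mice or dishes is also not given, so a p-value here reflects the spread among the libraries, which may be technical. Postnatal day and stage are in part confounded, since all 4 iOL libraries are from day 6.

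BMPs are secreted dimers that bring together type I receptors, such as the Bmpr1a protein, and type II receptors, and the activated type I kinase phosphorylates SMAD1, SMAD5 and SMAD9. With SMAD4 these enter the nucleus and activate genes such as the Id family. ID proteins have a helix-loop-helix domain but no DNA-binding region, and they hold E proteins and their partners, among them OLIG1 and OLIG2, away from DNA. In the oligodendrocyte lineage, BMP is known to hold back differentiation and to favour astrocyte fates, and Bmp4 is itself a known transcript of early differentiating oligodendrocytes. Msx1 encodes a homeodomain repressor that is a classical BMP target in ectoderm, limb and dorsal neural tube.

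Promoter sequences from RefSeq (GRCm38.p6) were matched for 7 of the 8 genes, and Id1 has no entry. The 250 bases before the annotated start are shown for Bmp5, Msx1 and Bmp4 because these are the genes that passed the cKO test in iOLs, and for Id2 as an Id gene that did not. Capitals mark each CG dinucleotide in Bmp5, Msx1 and Bmp4, and the single GGCGCC in Id2. Bmp5 lies on the plus strand (chr9:75775115-75775364), Msx1 on the minus strand (chr5:37824586-37824835), Bmp4 on the minus strand (chr14:46390670-46390919) and Id2 on the minus strand (chr12:25096093-25096342). Each is written 5′ to 3′ on the gene's own strand.
Bmp5: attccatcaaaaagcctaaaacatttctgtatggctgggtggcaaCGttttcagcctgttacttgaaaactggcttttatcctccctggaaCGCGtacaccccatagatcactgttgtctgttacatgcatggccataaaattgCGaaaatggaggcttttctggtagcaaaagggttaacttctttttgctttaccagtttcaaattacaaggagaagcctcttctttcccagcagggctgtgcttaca
Msx1: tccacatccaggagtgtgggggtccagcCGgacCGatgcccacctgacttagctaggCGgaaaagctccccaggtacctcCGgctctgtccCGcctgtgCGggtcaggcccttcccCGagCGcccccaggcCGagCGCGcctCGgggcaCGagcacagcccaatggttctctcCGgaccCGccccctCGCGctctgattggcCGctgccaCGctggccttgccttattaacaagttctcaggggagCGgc
Bmp4: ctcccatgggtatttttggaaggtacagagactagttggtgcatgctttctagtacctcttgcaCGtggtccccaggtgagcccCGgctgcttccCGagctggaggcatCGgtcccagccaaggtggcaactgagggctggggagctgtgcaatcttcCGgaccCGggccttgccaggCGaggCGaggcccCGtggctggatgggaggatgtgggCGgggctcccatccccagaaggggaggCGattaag
Id2: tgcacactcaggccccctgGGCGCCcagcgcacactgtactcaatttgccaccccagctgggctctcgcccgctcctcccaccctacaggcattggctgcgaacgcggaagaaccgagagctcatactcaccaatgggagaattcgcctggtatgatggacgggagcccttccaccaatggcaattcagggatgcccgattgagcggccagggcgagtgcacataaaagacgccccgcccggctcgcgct
The Bmp5 window is poor in CG and the Msx1 window is rich in it. Motifs were counted on both strands over 300 bases, the 250 above and the first 50 after the start. The motifs CG, GGCGCC and CANNTG read the same on both strands, while GTCT was counted together with its complement AGAC, and every GGCGCC holds 1 CG. Bmp5 had 4 CGs, and 68.6% of the 32851 promoters of the table had at least as many. Bmp4 had 12 (39.6%), Id3 19 (28.1%), Id2 21 (24.8%), Msx1 29 (12.9%), Id4 39 (4.45%) and Bmpr1a 48 (1.22%), where the median promoter had 7. The GC-rich SMAD element GGCGCC, held by 11.9% of promoters, occurred once each in Bmpr1a, Id2 and Id4 and was not found in the windows of the other 4. The SMAD box GTCT or AGAC, held by 88.0% of promoters, was counted 3 times in Id3, 2 times in Bmp4 and once each in Bmp5, Bmpr1a and Id2. The E-box CANNTG, held by 72.3%, was counted 3 times in Bmp4 and once each in Id2 and Msx1. These matches describe letters and not bound sites.

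Total counts ran from 17417529 to 19680398 per library, so depth was much alike. Levels are given as CPM, reads of a gene per 1000000 reads of the library, scaled with edgeR's TMM factors, and are read across libraries, not between genes, since transcript lengths were not used. Eed itself had 21.7 and 16.8 CPM in control OPCs and 13.3, 11.8 and 12.5 CPM in cKO OPCs. In iOLs it had 18.0 and 21.2 CPM in controls and 14.6 and 12.1 CPM in cKO, so every cKO library was below every control library of its stage. The control OPC libraries stood far apart. Their counts differed with a chi-square of 106 per degree of freedom, against 6.48 between the control iOL libraries. Markers of astrocytes (14 of 15 written are in the table) summed to 4189 CPM in control OPC replicate 1 and 11537 CPM in replicate 2, and in cKO OPCs to 3696 and 3901 CPM (day 7) and 9113 CPM (day 6). In iOLs they summed to 7176 and 7357 CPM in controls and to 10070 and 12074 CPM in cKO. Oligodendrocyte-lineage markers without Bmp4 (14 of 14) summed to 14511 to 17849 CPM in control OPCs, 11201 to 13307 CPM in cKO OPCs, 12059 to 12586 CPM in control iOLs and 5044 to 5793 CPM in cKO iOLs. In such bulk samples fewer cells of a type and less RNA per cell cannot be told apart.

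**Figure D1:**
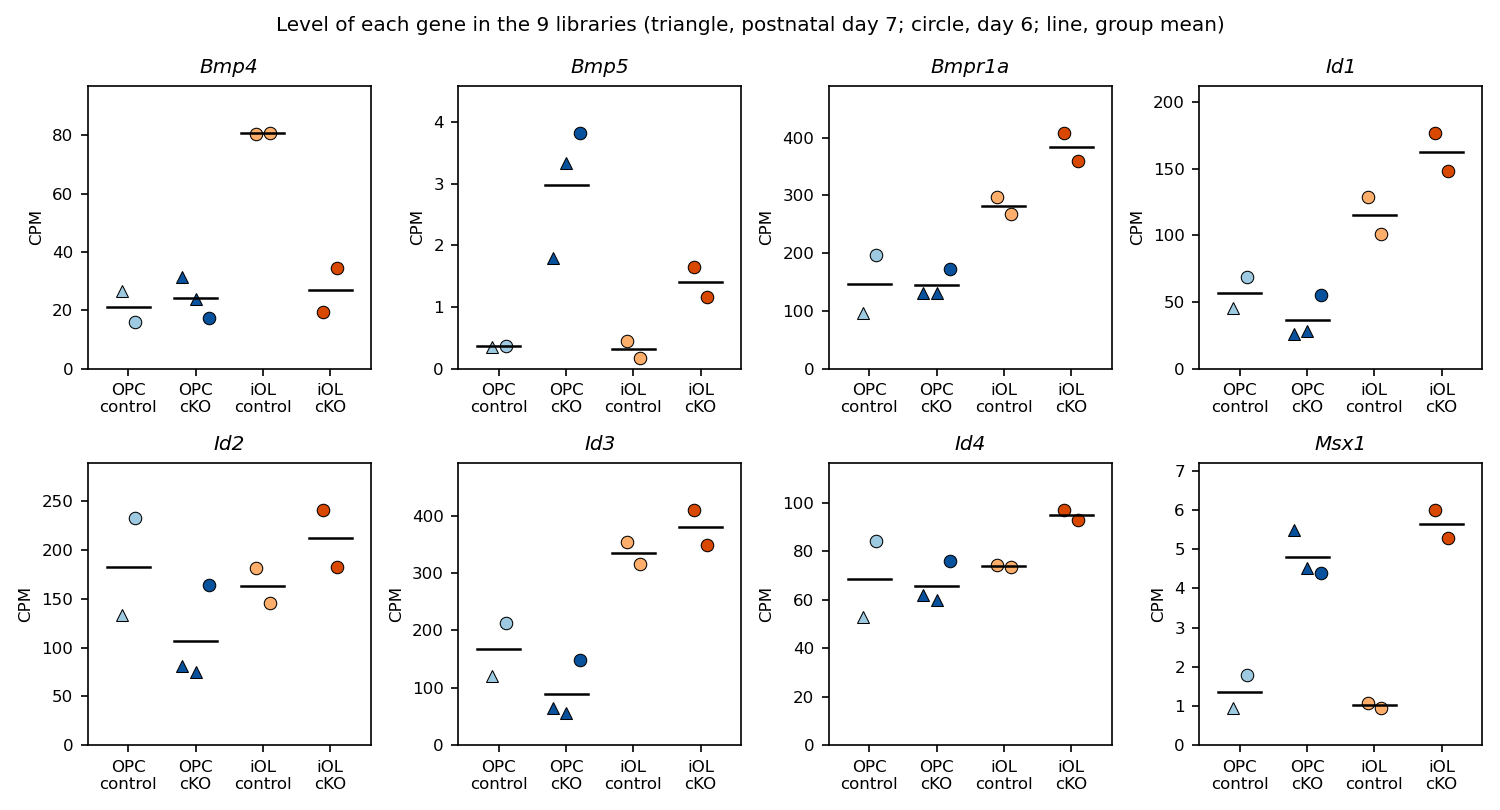
Level of each of the 8 genes (CPM) in each of the 9 libraries, triangles for postnatal day 7 and circles for day 6, with a line at the group mean. Msx1 and Bmp5 lay higher in every cKO library than in any control library of the same stage, and Bmp4 was at 80.5 and 80.7 CPM in the control iOL libraries and at most 34.6 CPM in all others.

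Bmp5 and Msx1 rose in Eed cKO cells at both stages, Bmp4 fell in Eed cKO iOLs, and the Id genes and Bmpr1a did not pass the test at either stage. In OPCs 2 of the 8 genes were higher and 0 lower at an adjusted p under 0.05 (edgeR's quasi-likelihood test, Benjamini-Hochberg over all genes), where 2.94% of all genes were called higher and 0.303% lower. At an unadjusted p under 0.05, 2 were lower, Id2 and Id3, and DESeq2 called 0 lower. In iOLs 2 were higher and 1 lower, where 7.08% of all genes were called higher and 3.51% lower. The median log2 change of the 8 genes was −0.04 in OPCs and 0.41 in iOLs, beside −0.02 and −0.0036 for all genes.

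Bmp5 encodes a ligand of the BMP7 subgroup. It had 0.351 and 0.368 CPM in control OPCs and 1.79, 3.34 and 3.82 CPM in cKO OPCs. Every cKO library was well above both controls, with 33, 62 and 74 reads against 6 and 7. The fitted log2 change was 3.03 ± 0.50 (SE), an 8.15-fold rise (95% interval 3.74 to 17.8, edgeR adjusted p = 0.013). The ratio of pooled counts was 8.32, with an exact 95% interval of 4.73 to 15.9 for counting error alone. In iOLs Bmp5 had 0.454 and 0.167 CPM in controls (8 and 3 reads) and 1.65 and 1.16 CPM in cKO (31 and 22 reads), again with no overlap. Every cKO library was above every control library for 16.9% of all genes in OPCs and 33.6% in iOLs. The log2 change was 2.16 ± 0.57 (4.47-fold, edgeR adjusted p = 0.0407), and the counting ratio was 4.55 (2.35 to 9.66).

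All 4 control libraries had fewer than 10 reads of Bmp5. The deposited table keeps genes with 10 or more reads in at least 4 libraries, so Bmp5 is in it through its cKO libraries, and the direction of its change is in part set by that limit. The OPC call was lost without control OPC replicate 1 (adjusted p = 0.0869) and without cKO OPC replicate 2 (0.0526). The iOL call was lost without any 1 of the 4 iOL libraries (adjusted p = 0.0897 and 0.241 without control replicates 1 and 2, 0.217 and 0.0935 without cKO replicates 1 and 2) and without cKO OPC replicate 2 (0.0664). The log2 change stayed between 2.81 and 3.29 in OPCs and between 1.62 and 3.03 in iOLs over all alternatives.

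Bmp4 encodes a ligand of the BMP2/4 subgroup. It had 26.4 and 15.9 CPM in control OPCs and 31.4, 23.8 and 17.4 CPM in cKO OPCs, so the groups overlapped and the lowest value of each was its day 6 library. The log2 change was 0.20 ± 0.31 with a 95% interval of −0.51 to 0.90 (edgeR adjusted p = 0.712). In iOLs Bmp4 had 80.5 and 80.7 CPM in controls and 19.5 and 34.6 CPM in cKO. The control iOL libraries were nearly equal and both cKO libraries lay below them. Bmp4 fell by 1.58 ± 0.34 on the log2 scale, 2.98-fold lower (edgeR adjusted p = 0.0185). That call was lost without control iOL replicate 1 (adjusted p = 0.0974), control iOL replicate 2 (0.0835) or cKO iOL replicate 1 (0.149), with a log2 change from −2.05 to −1.22. The fall in Bmp4 moved with the lower sum of the other oligodendrocyte-lineage markers in the same libraries, and the part of that sum in the result was not tested. These markers did not all fall. Of the 15, Bmp4 included, 7 passed as lower in cKO iOLs, 1 as higher and 7 did not pass. The higher one was Cspg4, with a log2 change of 0.73 ± 0.20.

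From OPCs to iOLs Bmp4 rose in controls by a log2 change of 1.93 ± 0.35 (3.81-fold, edgeR adjusted p = 0.00172), a call kept in all 16 settings run. In cKO cells the stage change was 0.16 ± 0.31 (95% interval −0.53 to 0.85, adjusted p = 0.709). The stage comparisons and the cKO comparisons share libraries, so these are views of the same 4 groups. The difference between the cKO effect in iOLs and that in OPCs was −1.77 ± 0.46 on the log2 scale, with an unadjusted p of 0.00379 and an edgeR adjusted p of 0.0918. With postnatal day as a term the difference was −1.67 (adjusted p = 0.0137), and DESeq2 gave an adjusted p of 0.00379. Without cKO OPC replicate 3, which leaves cKO OPCs of day 7 alone, edgeR gave 0.0373. These were the only 3 of the 15 alternatives that passed, and the other 12 did not. Over all 15 the difference ran from −2.24 to −1.42.

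Besides Bmp4 and Bmp5, 3 of the 14 ligands written are in the table: Bmp2, Bmp6 and Bmp7. These 3 did not pass edgeR's cKO test at either stage. Bmp7, a ligand that pairs with BMP2 and BMP4 as well as with itself, had 137 and 147 CPM in control OPCs and 167, 175 and 188 CPM in cKO OPCs. All cKO values were higher, as for 16.9% of all genes, with a log2 change of 0.32 ± 0.12 that missed the threshold (edgeR adjusted p = 0.15). From OPCs to iOLs Bmp2 fell and Bmp6 rose in both genotypes. The log2 stage change of Bmp2 was −2.69 ± 0.39 in controls and −3.06 ± 0.35 in cKO, and that of Bmp6 was 2.78 ± 0.48 and 3.44 ± 0.41. Bmp7 fell with stage by 0.75 ± 0.13 and 1.002 ± 0.12 on the log2 scale. These 6 stage calls were kept in all settings run.

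Bmpr1a encodes a type I receptor for BMP2 and BMP4. It had 95.7 and 196.3 CPM in control OPCs and 130.7, 130.2 and 172.5 CPM in cKO OPCs. The 3 cKO values all lay between the control values, and the log2 change was −0.02 ± 0.26 (95% interval −0.60 to 0.57, edgeR adjusted p = 0.975). The sign of this value turned with postnatal day as a term, to 0.17, and without control OPC replicate 2 it was 0.59 and passed (adjusted p = 0.0429). The mean log2 difference of cKO from control was 0.45 within day 7 and −0.19 within day 6. In iOLs it had 296.6 and 267.2 CPM in controls and 408.1 and 359.1 CPM in cKO. The cKO libraries were the higher ones, with a log2 change of 0.44 ± 0.29 that did not pass (edgeR adjusted p = 0.424).

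Bmpr1a rose from OPCs to iOLs in both genotypes, by a log2 change of 0.95 ± 0.29 in controls (edgeR adjusted p = 0.0235) and 1.41 ± 0.26 in cKO (adjusted p = 0.00219). The control call was lost without control OPC replicate 1 (adjusted p = 0.0548), control iOL replicate 1 (0.102) or control iOL replicate 2 (0.0624), and in a fit of only those groups (0.0988). The call in cKO cells was kept in all 16 settings. Among the 10 receptor and co-receptor genes in the table, 1 rose in cKO OPCs and 2 in cKO iOLs, and no other passed the edgeR test. Over all genes 2.94% and 7.08% were called higher. The co-receptor Rgmb had 10.5 and 12.2 CPM in control OPCs and 31.1, 24.6 and 20.3 CPM in cKO OPCs, a log2 change of 1.16 ± 0.20 (adjusted p = 0.016). It rose in cKO iOLs by 0.75 ± 0.21 on the log2 scale (adjusted p = 0.0487). Both calls were lost without single libraries, at worst without control OPC replicate 1 in OPCs (adjusted p = 0.103) and without cKO iOL replicate 2 in iOLs (0.288). Acvrl1, a type I receptor known from endothelium, rose in cKO iOLs at 5 and 1 reads in controls against 14 and 26 reads (fitted 6.08-fold). Like Bmp5 it has under 10 reads in every control library, and without cKO iOL replicate 2 its adjusted p was 0.213. Endothelial markers (5 of 12 in the table) summed to 69.6 and 71.1 CPM in control iOLs and 121 and 150 CPM in cKO iOLs, while Cldn5, Pecam1 and Cdh5 are not among the genes analysed here. Kdr made most of that difference, with a mean of 37.3 CPM in control iOLs and 93.3 CPM in cKO iOLs. By edgeR 2 of the 5, Kdr and Flt1, passed as higher there and 3 did not pass. The part of these markers in the Acvrl1 result was not tested.

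**Figure D2:**
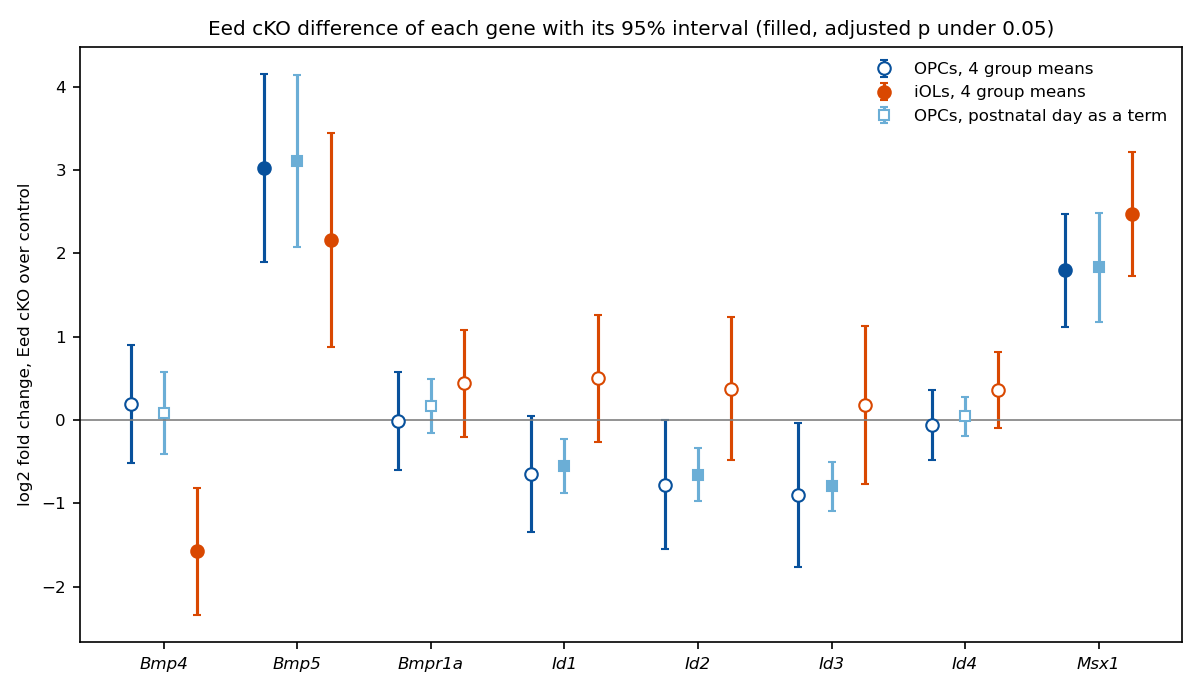
Log2 fold change of each of the 8 genes in Eed cKO over control, with its 95% interval, in OPCs, in OPCs with postnatal day as a term and in iOLs, filled where the adjusted p was under 0.05. Bmp5 and Msx1 lay above 0 at both stages, Bmp4 lay below 0 in iOLs at −1.58, and the intervals of Bmpr1a and Id4 crossed 0 at both stages.

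Id1, Id2 and Id3 encode ID proteins that are among the most direct BMP targets. In OPCs of either genotype all 3 were higher in the day 6 than in the day 7 libraries. Id1 had 45.1 (day 7) and 68.3 CPM (day 6) in control OPCs, and 25.8 and 28.4 CPM (day 7) and 54.9 CPM (day 6) in cKO OPCs. Id2 had 133.6 and 232.7 CPM in controls in the same order, and 81.4, 75.2 and 164.5 CPM in cKO. Id3 had 120.5 and 213.1 CPM in controls, and 64.4, 56.2 and 148.1 CPM in cKO. For each of these genes both day 7 cKO libraries were the lowest of the 5, and the day 6 cKO library lay between the controls. Across all 5 libraries the log2 changes were −0.64 ± 0.31 for Id1, −0.77 ± 0.34 for Id2 and −0.90 ± 0.38 for Id3 (edgeR adjusted p = 0.222, 0.195 and 0.183).

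Within a day, cKO was below control for all 3 of these genes on both days. On day 7 the mean log2 difference of cKO from control was −0.73 for Id1, −0.77 for Id2 and −1.001 for Id3, and on day 6, with 1 library each, it was −0.32, −0.50 and −0.52. With postnatal day as a term in the edgeR fit, Id1 (−0.55 ± 0.14, adjusted p = 0.0427), Id2 (−0.65 ± 0.14, 0.0232) and Id3 (−0.79 ± 0.13, 0.00675) passed as lower. That fit called more genes in all, 6.26% higher and 3.94% lower. The same 3 genes also passed without cKO OPC replicate 3, the day 6 library (adjusted p = 0.0201, 0.0239 and 0.0127). That fit sets cKO libraries of day 7 alone against controls of both days, so it cannot separate genotype from day. Without single libraries the log2 changes ran from −1.07 to −0.31 for Id1, −1.23 to −0.32 for Id2 and −1.47 to −0.43 for Id3. The summed astrocyte markers were likewise lowest in the day 7 cKO libraries and highest in the day 6 control. On day 7 they were 4189 CPM in control and 3696 and 3901 CPM in cKO, and on day 6 11537 and 9113 CPM. The part of these markers in the Id result of OPCs was not tested.

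Id4, which encodes the remaining ID protein, had 52.8 and 84.5 CPM in control OPCs and 61.8, 59.99 and 75.9 CPM in cKO OPCs. All cKO values lay between the controls. The log2 change was −0.06 ± 0.19 (95% interval −0.48 to 0.36, edgeR adjusted p = 0.857), and 0.046 with postnatal day as a term.

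In iOLs most Id values in cKO libraries were above those of the controls. Id1 had 128.6 and 101.1 CPM in control iOLs and 176.6 and 148.5 CPM in cKO iOLs. Id2 had 181.5 and 145.3 CPM in controls and 241.5 and 182.5 CPM in cKO. Id4 had 74.6 and 73.5 CPM in controls and 97.3 and 93.2 CPM in cKO. For these 3 genes both cKO libraries were above both controls, whereas Id3 overlapped. Such a separation was common, since 33.6% of all genes had both cKO iOL libraries above both controls. Id3 had 354.0 and 316.2 CPM in controls and 410.6 and 348.2 CPM in cKO. The log2 changes were 0.50 ± 0.34 for Id1, 0.38 ± 0.38 for Id2, 0.18 ± 0.42 for Id3 and 0.36 ± 0.20 for Id4, and none passed (edgeR adjusted p = 0.451, 0.654, 0.868 and 0.343). Id1 and Id4 passed as higher with postnatal day as a term (0.0446 and 0.0462) and in a fit of the iOL libraries alone (0.0313 and 0.00833). All iOL libraries are from the same postnatal day, so the day term cannot adjust this comparison for day. Shares of all genes called in iOLs by these fits are not given here. The passes are therefore not read as particular to Id1 and Id4. The astrocyte marker sum was higher in both cKO iOL libraries, mainly through Gfap, the astrocyte filament gene, at 3655 and 3779 CPM in controls and 6115 and 7938 CPM in cKO (edgeR adjusted p = 0.338). Of its 14 genes Sox9 rose (log2 0.54 ± 0.15, adjusted p = 0.0436), S100b fell (−1.58 ± 0.25, 0.00472) and 12 did not pass. The part of these markers in the Id values of iOLs was not tested.

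The difference of the cKO effect between iOLs and OPCs was 1.142 ± 0.46 on the log2 scale for Id1, 1.15 ± 0.51 for Id2, 1.08 ± 0.57 for Id3 and 0.42 ± 0.28 for Id4. By edgeR 0 of the 8 genes passed in this comparison, where 0.945% of all genes were called higher and 0.886% lower. By edgeR with no adjustment, Id1 was the 1 gene higher and Bmp4 the 1 lower at a p under 0.05, and DESeq2 called 1, Bmp4. With postnatal day as a term Id1 (1.05, adjusted p = 0.0159), Id2 (1.03, 0.0182) and Id3 (0.97, 0.0164) passed. They passed too without cKO OPC replicate 3, where the cKO OPC libraries left were of day 7 alone.

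From OPCs to iOLs Bmpr1a and Id1 rose in both genotypes, Bmp4 rose in controls, and Id2, Id3 and Id4 rose in cKO cells. How these stage changes differ between genotypes is the difference tested above. In controls 3 of the 8 genes rose and 0 fell, where 21.0% of all genes were called higher and 25.3% lower, and at an unadjusted p under 0.05 and by DESeq2 0 fell as well. In cKO cells 5 rose and 0 fell, where 18.5% were called higher and 21.8% lower. At an unadjusted p under 0.05, 1 was lower, Bmp5 (log2 −1.08 ± 0.41, edgeR adjusted p = 0.0593, or 0.0277 without cKO OPC replicate 1 and 0.0263 with the day term), and DESeq2 called 0 lower. The 5 were Bmpr1a and the 4 Id genes.

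Id1 rose with stage by 1.02 ± 0.34 on the log2 scale in controls (edgeR adjusted p = 0.0353) and by 2.16 ± 0.31 in cKO (0.000557). Its control call was lost without either control iOL library (adjusted p = 0.166 and 0.0618), without control OPC replicate 1 (0.17) and without either cKO iOL library (0.0527 and 0.0524). Id3 changed by 1.01 ± 0.43 in controls, which did not pass (0.0806; 0.0434 without control OPC replicate 2, 0.0113 without cKO OPC replicate 3 and 0.024 with the day term), and rose by 2.08 ± 0.38 in cKO (0.00233). The stage calls of Id1 and Id3 in cKO were kept in all 16 settings. Id2 had a stage change of −0.16 ± 0.38 in controls and rose by 0.99 ± 0.34 in cKO (adjusted p = 0.0454). Id4 had one of 0.11 ± 0.20 in controls (0.49 and an adjusted p of 0.0273 without control OPC replicate 2) and rose by 0.53 ± 0.18 in cKO (0.0444). The cKO calls of Id2 and Id4 were lost with postnatal day as a term (0.0642 and 0.18) and without any 1 of cKO OPC replicates 1 and 2 and the 4 iOL libraries. Without single libraries the log2 change in cKO ran from 0.77 to 1.44 for Id2 and from 0.46 to 0.65 for Id4. The Id2 call in cKO was also lost in a fit of only the groups compared. In controls Id2 passed as lower with postnatal day as a term (log2 −0.59, adjusted p = 0.0168). Msx1 did not pass in either stage comparison (log2 −0.44 ± 0.36 in controls, 0.24 ± 0.26 in cKO), and neither did Bmp5 in controls (−0.22 ± 0.69).

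Msx1 had 0.937 and 1.79 CPM in control OPCs and 5.48, 4.52 and 4.39 CPM in cKO OPCs. In iOLs it had 1.08 and 0.944 CPM in controls and 6.01 and 5.29 CPM in cKO. The cKO libraries of both stages formed a narrow band above all controls, at 84 to 113 reads against 16 to 34. Msx1 rose in cKO OPCs by a log2 change of 1.80 ± 0.30 (3.48-fold, edgeR adjusted p = 0.014) and in cKO iOLs by 2.47 ± 0.33 (5.56-fold, adjusted p = 0.00227). The counting ratios were 3.45 (2.55 to 4.77) and 5.59 (3.91 to 8.20). The OPC call was lost without control OPC replicate 1 (adjusted p = 0.0591) or cKO OPC replicate 1 (0.0634) and in a fit of the OPC libraries alone (0.0653). The iOL call was kept in all 16 settings, with an adjusted p of at most 0.0297. In OPCs every cKO library was thus above both controls for Msx1, as for 16.9% of all genes, while the 4 Id genes overlapped.

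Across the BMP pathway 57 of 79 genes written in lists are in the table, the 8 genes included. In cKO OPCs 7 rose and 0 fell by edgeR, with 5 lower at an unadjusted p under 0.05 and 0 lower by DESeq2. Over all genes 2.94% were called higher and 0.303% lower there. In cKO iOLs 11 rose and 1, Bmp4, fell, where 7.08% of all genes were called higher and 3.51% lower. Bmp5, counted at both stages, and Acvrl1, counted in iOLs, had fewer than 10 reads in every control library. They are in the table through their cKO libraries, so the direction of their change is in part set by that limit. The lists were also chosen with earlier results of these data known, so these counts are not independent support. The median log2 change of the 57 was 0.18 in OPCs and 0.47 in iOLs, beside −0.02 and −0.0036 for all genes. The median log2 change of the 20 target genes alone was −0.025 in OPCs and 0.48 in iOLs, beside −0.023 and −0.0036 for all genes. Msx2, Id2 and Id3 of these were lower in OPCs at an unadjusted p under 0.05. For Msx2 the log2 change was −1.12 ± 0.45 (edgeR adjusted p = 0.169). By the adjusted test 5 of the 20 rose in OPCs, again beside 2.94% of all genes. Besides Msx1 they were Dlx2, a homeodomain factor of forebrain interneuron precursors (2.43 on the log2 scale), Hey1, a repressor better known as a Notch target (0.71), the T-box repressor Tbx3 (4.05) and Runx2, the osteoblast master regulator (2.34 ± 0.30, edgeR adjusted p = 0.00316). Runx2 had 2.34 and 3.26 CPM in control OPCs and 15.2, 16.3 and 11.5 CPM in cKO OPCs, and it was the only one of the 7 whose call was kept in all settings. Tbx3 rests on 2 and 10 reads in the controls, and its adjusted p was 0.186 without control OPC replicate 1, where that of Dlx2 was 0.187. Hey1 reached 0.151 without cKO OPC replicate 1.

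In iOLs 4 of the 20 targets rose, beside 7.08% of all genes. They were Msx1, Dlx2 (1.77 on the log2 scale), Tbx2 (2.30), a T-box repressor, and the immediate early gene Junb (0.59). Dlx2, Tbx2 and Junb each lost the call without single iOL libraries (highest adjusted p 0.259, 0.257 and 0.266). Of the 4 SMAD transducers, Smad1 rose in cKO iOLs by 0.74 ± 0.12 on the log2 scale (edgeR adjusted p = 0.00527). It had 50.03 and 49.1 CPM in control iOLs and 80.5 and 85.2 CPM in cKO iOLs, and the call was lost without either control iOL library. Over all alternatives the log2 change of Smad1 stayed between 0.70 and 0.78. Of the 13 secreted antagonists and binding proteins, Bmper, which binds BMPs outside the cell (1.07), and the procollagen protease Bmp1, which cleaves chordin (0.54), rose in cKO iOLs. Of the 9 intracellular inhibitors the ubiquitin ligase Nedd4l rose there (0.82). The Bmper, Bmp1 and Nedd4l calls were lost without control iOL replicate 2 or other single iOL libraries (highest adjusted p 0.108, 0.177 and 0.15). Noggin and the inhibitory SMADs Smad6 and Smad7 did not pass at either stage.

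**Figure D3:**
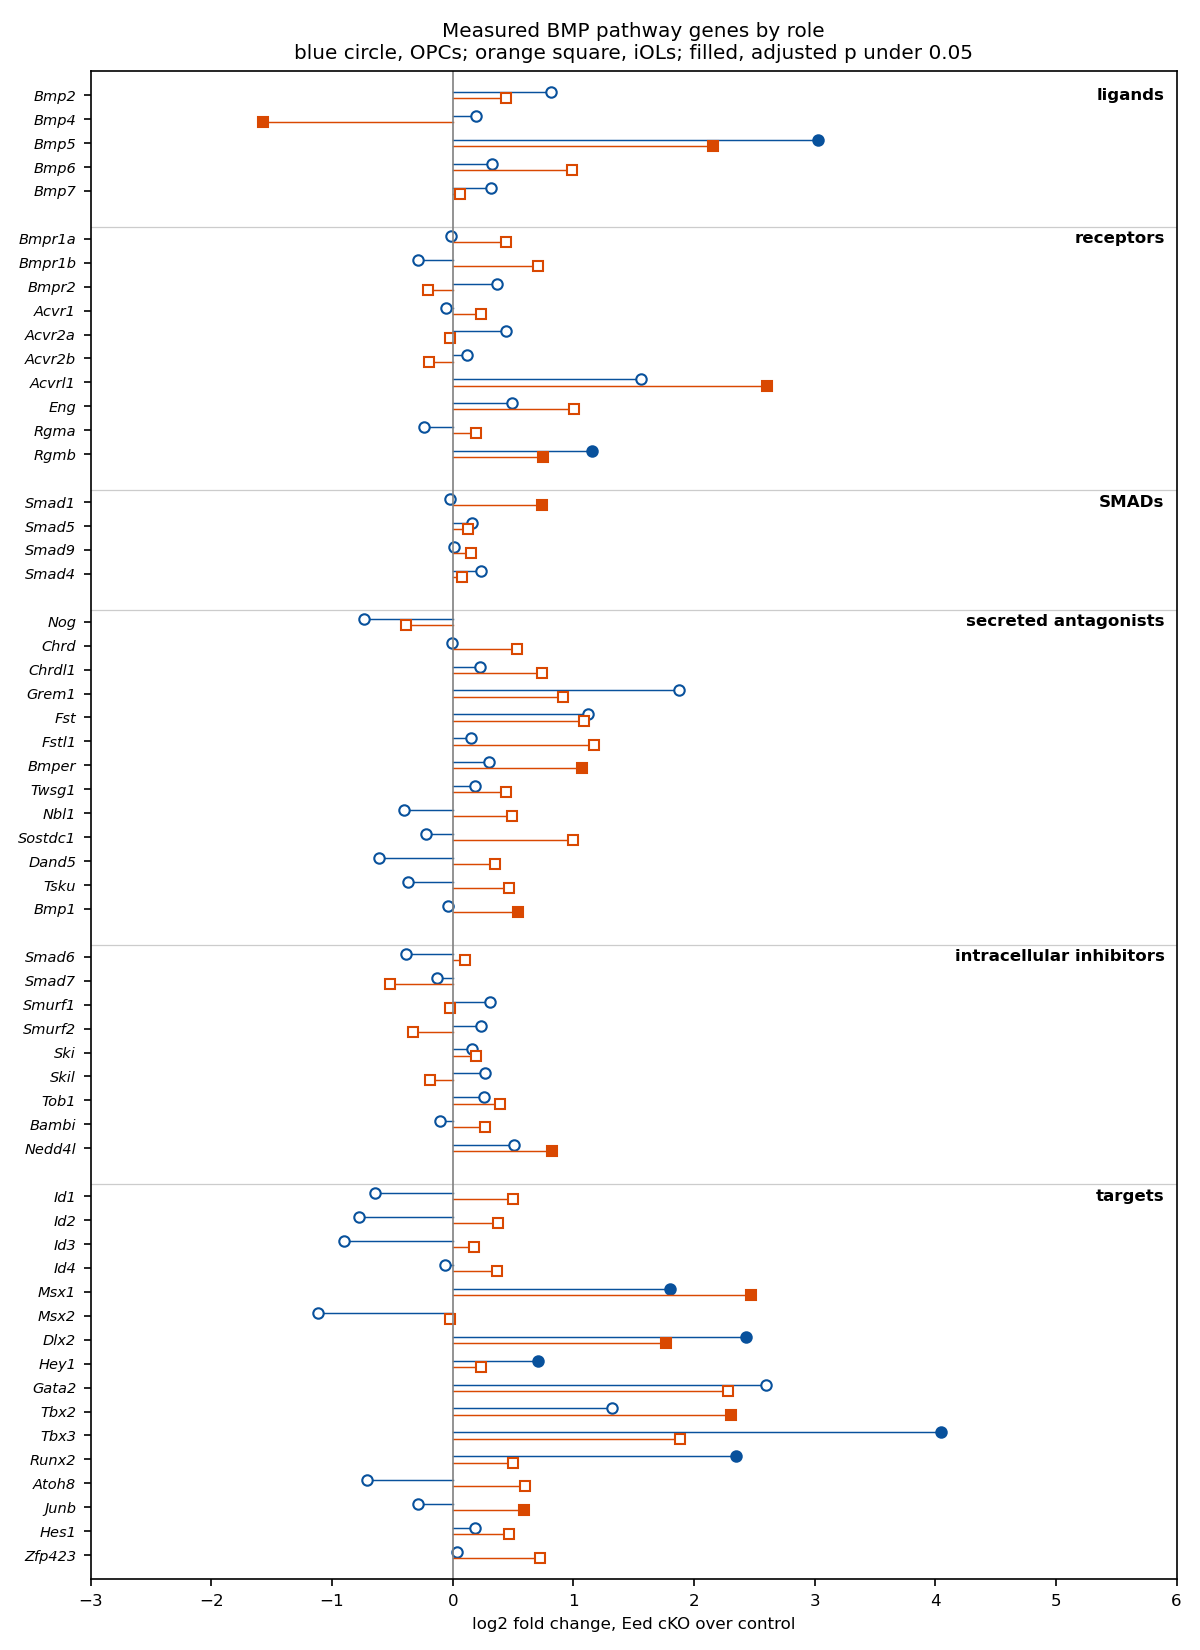
Log2 fold change in Eed cKO over control of the 57 BMP pathway genes in the count table, 1 row per gene grouped by role, in OPCs (circles) and iOLs (squares), filled where the adjusted p was under 0.05. Filled points lay to the right of 0 except Bmp4 in iOLs, and the points of Id1, Id2 and Id3 lay left of 0 in OPCs and right of 0 in iOLs.

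Among the partners that ID proteins bind, Olig2, the lineage factor, fell in cKO iOLs by 0.67 ± 0.15 on the log2 scale (edgeR adjusted p = 0.0252). The call was lost without any 1 of the iOL libraries, with an adjusted p of up to 0.201 without cKO iOL replicate 2. In OPCs the log2 change of Olig2 was −0.40 ± 0.14 and did not pass.

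Ligand supply and Id response were then set side by side as sums of CPM in each library. The 5 ligands summed to 169.8 and 169.2 CPM in control OPCs and to 212.9, 212.0 and 217.0 CPM in cKO OPCs, with Bmp7 the main part. In iOLs they summed to 171.7 and 181.3 CPM in controls and 114.4 and 161.8 CPM in cKO. The ligand sum was thus above control in every cKO OPC library and below control in both cKO iOL libraries. The lower sum in cKO iOLs is that of Bmp4, already given above. The means of the other 4 ligands were higher in cKO than in control iOLs, at 88.3 against 84.6 CPM for Bmp7, 20.4 against 10.3 CPM for Bmp6, 1.41 against 0.31 CPM for Bmp5 and 0.954 against 0.70 CPM for Bmp2, and Bmp5 alone of these passed the test. The 4 Id genes summed to 352 and 598.6 CPM in control OPCs and to 233.5, 219.8 and 443.4 CPM in cKO OPCs. In iOLs they summed to 738.7 and 636.1 CPM in controls and 926.0 and 772.4 CPM in cKO. The Id sum therefore overlapped between genotypes in OPCs and was above control in both cKO iOL libraries. These sums carry no test, and long transcripts weigh more in them than short ones.

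The ligand sum divided by the Id sum was 0.482 and 0.283 in control OPCs and 0.912, 0.964 and 0.489 in cKO OPCs. In iOLs it was 0.232 and 0.285 in controls and 0.123 and 0.209 in cKO. On each day the cKO OPC libraries were above the control of that day, and in iOLs both cKO libraries were below both controls. The makeup of the Id sum also moved with stage. Id3 gave 34.2% and 35.6% of it in control OPCs, 27.6%, 25.6% and 33.4% in cKO OPCs, 47.9% and 49.7% in control iOLs and 44.3% and 45.1% in cKO iOLs. Id4 gave 26.5% and 27.3% in the day 7 cKO OPC libraries and at most 17.1% in each of the other 7 libraries.

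**Figure D4:**
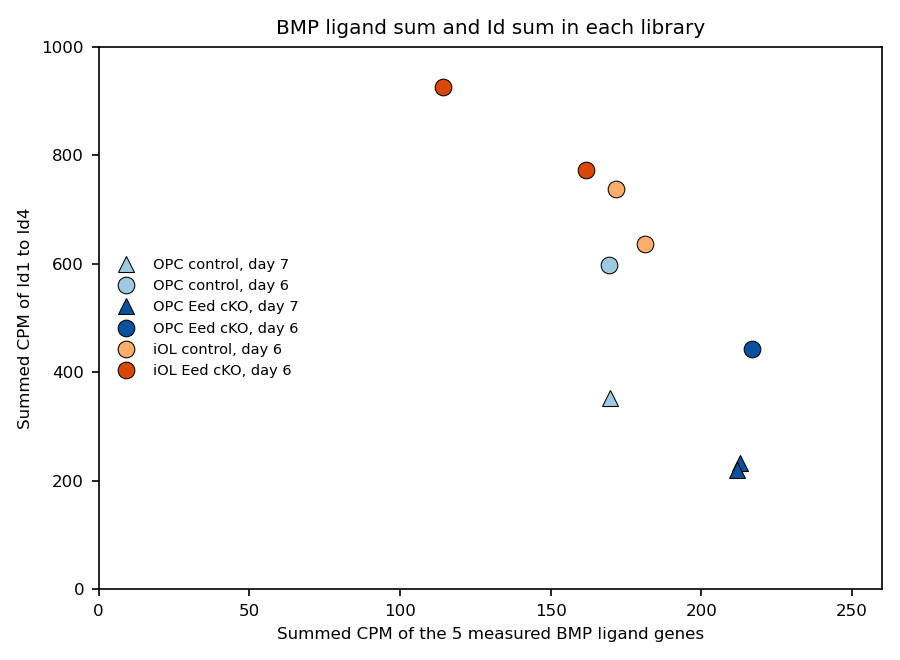
Summed CPM of the 5 ligands in the table (x axis) against summed CPM of the 4 Id genes (y axis) in each of the 9 libraries, 1 point per library. The cKO OPC libraries lay at 212 to 217 CPM of ligand with Id sums of 219.8 to 443.4 CPM, and the cKO iOL libraries lay at 114.4 and 161.8 CPM of ligand with the highest Id sums, 926.0 and 772.4 CPM.

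Likeness of pattern was described by the root mean square difference of log2 CPM standardised over the 9 libraries, where 0 is the same shape. Among the 8 genes Id1 and Id3 were closest (0.180), and Bmp5 and Msx1 differed by 0.488. Outside the 8, the gene nearest to Bmp4 was Gng4 (0.171), followed by Trim26 and Bcat1. Nearest to Bmp5 were Usp44 (0.234), Emx2 and Lpar2, and those near Msx1 were Irs4 (0.104) and Tns2. Bmpr1a was nearest to Arhgef4 (0.0825), Il6st and Robo2. Id1 was nearest to Rgs20 (0.126), Apool and Fam214b, Id2 to Slc25a10 (0.164), Nrbp1 and Pank2, and Id3 to Alas1 (0.126), Urgcp and Wdyhv1. Id4 was nearest to the type I receptor gene Bmpr1b (0.194), followed by Wnt5a and Pdzrn3. Bmpr1b had 12.7 and 48.0 CPM in control OPCs, 16.3, 17.4 and 40.9 CPM in cKO OPCs, 36.3 and 33.8 CPM in control iOLs and 59.8 and 54.9 CPM in cKO iOLs. As with Id4, the day 6 libraries were the higher ones in OPCs.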

How the data were processed

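The deposited table holds counts, whole numbers of reads per gene in 9 libraries, made by the authors with cutadapt 1.14, STAR 2.6.0, featureCounts of Subread 1.6.2 and the mm10 build, per the submitters' processing notes. It lists 13549 genes, each with at least 1 read in every library and 10 or more in at least 4, so other genes were not analysed here. Per the labels' protocols, the kit depended on the amount of RNA: stranded with polyA selection over 100 ng, SMARTer amplification under it. The sources do not name the kit of each library. The other 4 samples of the series, chromatin immunoprecipitation and its input, were not analysed here.

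A single model with a mean for each of the 4 groups was fitted to all 9 libraries in R 4.3.3 with edgeR 4.0.16 (TMM, quasi-likelihood test). The filter at a minimum count of 10 removed 0 genes. A gene is called where its p, adjusted by Benjamini-Hochberg across all genes, is under 0.05. Values after ± are standard errors of log2 changes, the change divided by the square root of its F statistic, with 5 residual degrees of freedom and a biological coefficient of variation of 16.3%. Levels are CPM. Exact intervals of count ratios cover counting error only. The tested results, but not the sums, likeness or motifs, were recomputed with DESeq2 1.42.0, RLE size factors, other filters (none, or 1 CPM), only the groups compared, a replicate block, a term for postnatal day, and each library left out. For the difference of effects, only the groups compared are all 4 groups, so that setting adds no value, and in the fit of the control libraries alone the filter removes Bmp5. For likeness, CPM were taken to log2 after adding a prior count of 2. The 8 genes and the gene lists were chosen with earlier results of these data known. Named are all 8 genes, called genes of the lists (up to 6 per list, by smallest p), and the 3 genes most like each of the 8. Some genes this rule names are not reported here. Further pathway genes are given by counts or as examples.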

Additional observations from a re-analysis of the deposited data

Results flagged for a closer look

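Smad1, which encodes a SMAD that BMP type I receptors phosphorylate, was the 1 gene of the 57 BMP pathway genes whose Eed cKO effect differed between the stages by the edgeR test of the difference. The effect in iOLs minus that in OPCs was 0.76 ± 0.16 on the log2 scale (adjusted p = 0.0494). This 1 gene is 1.75% of the 57, where 0.945% of all genes were called higher and 0.886% lower. The count is thus near the share over all genes and is no result about the pathway. Smad1 had 53.3 and 60.8 CPM in control OPCs and 59.0, 56.3 and 53.1 CPM in cKO OPCs, where the groups overlapped. In iOLs it had 50.03 and 49.1 CPM in controls and 80.5 and 85.2 CPM in cKO. Over the alternatives the adjusted p of the difference ran from 0.00684 to 0.203, the highest without control iOL replicate 1. The call was also lost with RLE size factors and without any 1 of cKO OPC replicates 1 and 2, control iOL replicate 2 and the 2 cKO iOL libraries. A cause was not tested.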

How the results depend on the processing

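Over the 8 genes, 542 values kept direction and side of the threshold, 38 lost the call, 33 gained one and 18 turned in sign. The cause was not tested. The share called over all genes moved with the setting too. In cKO OPCs it was 2.94% higher and 0.303% lower in the main fit, and 6.26% and 3.94% with the day term. In the main fit it was 7.08% and 3.51% in cKO iOLs. For the stage it was 21.0% and 25.3% in controls and 18.5% and 21.8% in cKO, and for the difference 0.945% and 0.886%. Shares for the other settings are not given here, so the counts below are not read as particular to these genes. In cKO OPCs, 2 of the 8 genes and 7 of the pathway genes were called, and 1 and 3 with only the groups compared, 5 and 13 with postnatal day as a term, and 0 to 5 and 2 to 18 without single libraries. In cKO iOLs the 3 and 12 called became 6 and 25 with only the groups compared, 5 and 24 with the day term, and 1 to 3 and 2 to 19 without single libraries. For the stage in controls the 3 and 24 became 5 of the 8 genes with the day term, 14 pathway genes with only the groups compared, and 1 to 5 and 15 to 31 without single libraries. For the stage in cKO the 5 and 26 ran from 3 to 5 and from 20 to 36 without single libraries. For the difference of effects the 0 and 1 became 4 and 10 with the day term, 1 and 4 with DESeq2, 0 pathway genes with RLE size factors, and 0 to 4 and 0 to 8 without single libraries.

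The labels do not say whether replicate numbers pair the samples. Over 12 same-numbered pairs the correlation of deviations ran from −0.35 to 0.31, and 3 were over 0.1. In iOLs control and cKO libraries of the same number had 0.239 and those of different numbers −0.239. Deviations in a group of 2 mirror each other, so these values are not independent. In OPCs replicate 2 is from day 6 in controls and from day 7 in cKO. These correlations therefore cannot decide whether the numbers mark pairs. With the replicate block the cKO OPC calls became 5 of the 8 genes and 12 pathway genes, and those of the difference 2 and 7. The block ended the call of Bmp5 in cKO iOLs (edgeR adjusted p = 0.0621). The stage change of Bmp4 in cKO was −0.017 with the block.

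Signs turned for the following values. With the day term, Bmpr1a and Id4 in cKO OPCs became 0.17 and 0.046, and the stage change of Id4 in controls −0.093. Without single libraries, log2 changes in cKO OPCs ran from −0.13 to 0.61 for Bmp4, −0.44 to 0.59 for Bmpr1a and −0.36 to 0.32 for Id4. Stage changes in controls ran from −1.08 to 0.33 for Bmp5, −0.51 to 0.29 for Id2, −0.19 to 0.49 for Id4 and −0.82 to 0.11 for Msx1. That of Bmp4 in cKO ran from −0.31 to 0.52, and the difference of effects of Bmpr1a from −0.15 to 0.89. Leaving 1 library out of a group of 2 leaves a single one, assumed to vary like the other groups. Bmp5, with 3 to 8 reads in each control library, is limited by depth.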
